A study of Homo sapiens with 8 samples.

Results

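NB4 cells carrying a short hairpin RNA against TFEB were set against NB4 cells carrying a scrambled hairpin, both after 72 h in 1 µM all-trans retinoic acid (ATRA). NB4 is a human line derived from acute promyelocytic leukaemia, bears the PML-RARA fusion gene and matures towards granulocytes in ATRA. The hairpins were introduced by lentivirus, and neither their sequence nor the number of hairpins against TFEB is given in the sources used here. The labels list 8 samples in 4 groups of 2: scrambled with ethanol vehicle, scrambled with ATRA, TFEB hairpin with vehicle and TFEB hairpin with ATRA. The titles of both scrambled ATRA samples also carry the word vehicle, and their group follows the treatment field. Wild-type NB4 cells were not analysed here. Each group has 1 deposited table with 1 value per transcript model, in FPKM (fragments scaled to the length of the model and to the depth of the library), and how the 2 samples of a group were combined is not stated. Values were summed over the RefSeq models of each gene symbol, and the 11052 of 22627 symbols whose 4 values averaged 1 FPKM or more were compared. A gene high in 1 table alone can pass this filter through that table.

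With 1 value per group there is no replicate check: no SD, test or p-value can be given, and each difference below is a difference between 2 tables. Ratios are log2((FPKM + 1)/(FPKM + 1)), TFEB hairpin over scrambled, which understates the change of low genes. A gene is called higher or lower where this ratio reaches 1 in size, the 2-fold mark. RNA came from whole cultures, so fewer cells of a kind and less RNA per cell cannot be told apart.

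TFEB is a basic helix-loop-helix leucine zipper factor that, when released from mTORC1 control, enters the nucleus and drives genes of lysosomes and autophagy through an E-box element. Type I interferons act through IFNAR receptors, the kinases JAK1 and TYK2, and a complex of STAT proteins and IRF9 that binds interferon-stimulated response elements of antiviral genes. In promyelocytic leukaemia cells ATRA acts on PML-RARA, releases the block in differentiation and is known to raise interferon-responsive genes along with granulocyte genes.

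TFEB itself checks the hairpin. Its summed level was 1.20 FPKM in scrambled vehicle, 1.35 in TFEB hairpin vehicle, 19.4 in scrambled ATRA and 8.44 in TFEB hairpin ATRA. Under ATRA the hairpin cells thus held 43.6% of the scrambled level (log2 ratio -1.11), whereas with vehicle both tables were low and the hairpin table was not the lower one. The RefSeq models of the gene, on chromosome 6 from 41651716 to 41703997 in hg19, differed in how much they held. NM_001271945, the most abundant under ATRA, went from 14.3 to 5.22 FPKM (36.4%). NM_001271944 went from 2.28 to 1.23 FPKM (53.8%) and NM_007162 from 2.76 to 1.99 FPKM (72.4%), while the other 2 models were listed at 0 in both ATRA tables. Of the related MiT/TFE factors, TFE3 was at 19.9 FPKM in scrambled ATRA and 16.0 in hairpin ATRA, under the 2-fold mark. MITF (0.0519 and 0.116 FPKM) and TFEC (0.123 and 0.356 FPKM) were near 0 in both tables.

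**Figure D1:**
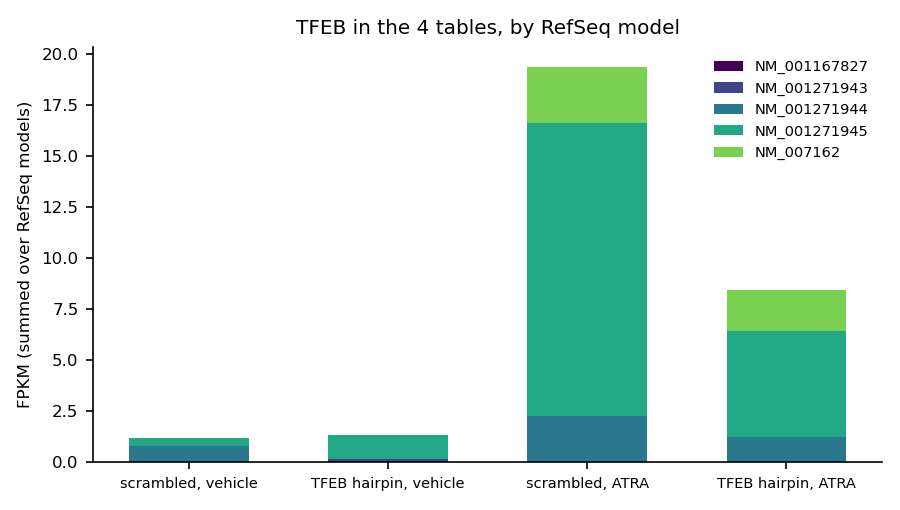
TFEB in the 4 deposited tables, in FPKM, as bars that start at 0 and are stacked by RefSeq model. The scrambled ATRA bar reaches 19.4 FPKM and the hairpin ATRA bar 8.44 FPKM, most of it NM_001271945 in both, and the vehicle bars lie at 1.20 and 1.35 FPKM.

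Under ATRA 295 of the 11052 genes (2.67%) were at least 2-fold higher with the TFEB hairpin and 175 (1.58%) at least 2-fold lower. Small RNA symbols and genes listed at 0 in one ATRA table made up many of these, and 209 higher and 92 lower genes were neither. Past 4-fold the same restriction left 55 higher and 5 lower genes. Genes of at least 100 FPKM had the largest share called higher of the 4 ranges of level set apart, 4.66% against 1.98% lower, and genes of 20 to 100 FPKM had 2.69% higher and 0.875% lower. The level is the mean of all 4 tables, so a high hairpin ATRA value itself moves a gene up the ranges. These shares therefore do not show that calls depend on level. Over all genes the log2 ratios had a median of 0.06, and 58.9% of ratios lay above 0. Rescaling the tables by median of ratios or upper quartile moved that median by -0.05 and -0.06. The deposited lower and upper bounds of the 2 tables did not overlap for 242 of the 295 higher and 123 of the 175 lower genes, but also for 6052 of all genes compared, and they enclosed the deposited FPKM in 80.4% and 81.2% of models of at least 1 FPKM, so they are not used as confidence intervals. From the spacing of low values, the TFEB hairpin ATRA table had 0.869 times the depth of the scrambled ATRA table.

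**Figure D2:**
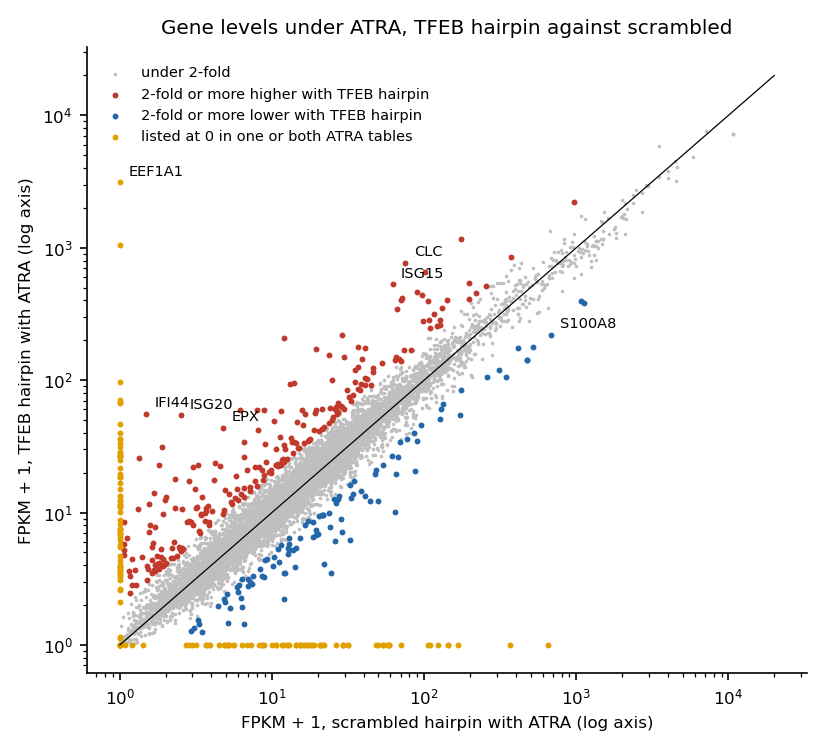
FPKM + 1 of the 11052 genes compared in scrambled ATRA (horizontal) and TFEB hairpin ATRA (vertical), both on log axes, with the line of equal levels. Red and blue points are genes at least 2-fold higher or lower and above 0 in both tables, grey points are under 2-fold, and yellow points are listed at 0 in at least one of them. ISG15, CLC, IFI44, ISG20 and EPX lie above the line, S100A8 below it, and EEF1A1 is at 0 on the horizontal axis.

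Myeloid genes that mark NB4 cells had a lower summed level in both ATRA tables than in both vehicle tables. The 13 genes of the identity list summed to 4559 FPKM in scrambled vehicle, 3035 in hairpin vehicle, 1151 in scrambled ATRA and 1009.8 in hairpin ATRA. Most of this was myeloperoxidase (MPO), at 3871, 2462, 662 and 594 FPKM in that order. In scrambled and hairpin ATRA the myeloid factor SPI1 was at 168 and 159, CSF3R at 77.2 and 72.9, CD33 at 29.3 and 25.6, and RARA at 11.3 and 11.2. Neutrophil elastase (ELANE) was listed at 0 in both ATRA tables. Of the 10 identity genes compared, ANPEP (CD13) was lower (46.2 and 18.4 FPKM) and none was higher. Markers of other cells differed in abundance. Those of eosinophils, basophils and mast cells summed to 189.1 FPKM in scrambled ATRA and 1307 in hairpin ATRA. Among 17 erythroid and megakaryocytic markers 9 were at 0 in all 4 tables, the globin genes HBA1, HBA2, HBB, HBG1 and HBG2 among them, and the summed level of the list was 3.99 FPKM in scrambled ATRA and 5.58 in hairpin ATRA. ITGA2B was its only member called higher, at 0.521 and 2.75 FPKM. The lymphoid list summed to 306.7 and 294.9 FPKM, most of it CD4 (116 and 159) and NKG7 (168 and 111), with CD2, MS4A1 and CD8B at 0 in both. The monocyte and macrophage list summed to 154.9 and 135.9 FPKM and the non-blood list to 60.5 and 47.7 FPKM, with no compared member of either past the 2-fold mark. Over all genes 2.67% were higher and 1.58% lower, so counts over such short lists say little. CD14 was at 0.913 and 1.09 FPKM, MRC1 was at 0 in both, and COL1A2, COL3A1 and DCN were at 0 in both.

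Interferon-responsive genes made up the largest group that was higher with the TFEB hairpin. Across 5 lists (antiviral effectors, nucleic acid sensors, JAK-STAT and IRF genes, MHC class I genes and APOBEC3 deaminases) 66 of 139 genes compared were higher and 0 lower, beside 2.67% and 1.58% of all genes. With vehicle the median log2 ratio of the antiviral effectors was 0.05, and no effector passed the mark in either direction, beside 1.06% of all genes higher and 0.787% lower. Effectors near 0 FPKM with vehicle, such as OAS2 (0.0235 in scrambled and 0.340 in hairpin), could hardly reach the mark because of the pseudocount. Of the 20 genes with the largest ratios under ATRA, 12 belonged to these lists. Some of the 20 passed the 1 FPKM filter only through the hairpin ATRA table.

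The ligands that open the pathway were near 0 and its receptors were under the mark. IFNB1, the interferon beta gene, was at 0.135 FPKM in scrambled ATRA and 0.754 in hairpin ATRA, IFNA1 at 0.223 and 0.814, and IFNA2 at 0.0261 and 0.412. All 10 ligands on the list were under the 1 FPKM filter, and IFNG, IFNE and IFNK were at 0 in both ATRA tables. The 5 receptor chains compared showed 0 higher and 0 lower, beside 2.67% and 1.58% of all genes. At those shares few calls or none would be expected among 5, so this count says little. IFNAR1 was at 16.6 and 18.2 FPKM, IFNAR2 at 28.3 and 34.4, and IFNGR1 at 55.8 and 57.9.

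In the signalling list 6 of 23 genes were higher and 0 lower, with a median log2 ratio of 0.22. STAT2, a subunit of the complex that interferons activate, went from 37.2 to 93.1 FPKM (log2 ratio 1.30), against 6.23 and 7.16 in the vehicle tables. IRF7, a factor that amplifies interferon production, stood at 25.1 and 59.9 FPKM in the ATRA tables. IRF9, the DNA-binding partner of STAT2, was at 33.4 and 42.9 FPKM and did not pass the mark. None of the 3 kinases compared was called, which says little at the shares of all genes: JAK1 was at 27.9 and 25.2 FPKM and TYK2 at 100.5 and 100.2. Of the feedback inhibitors, USP18, which removes ISG15 from proteins and restrains IFNAR2, was at 12.9 and 93.9 FPKM, the largest ratio of this list at 2.77. SOCS1 (1.02 and 3.15 FPKM) and SOCS2 (0.210 and 1.81 FPKM) were also higher, whereas SOCS3 was at 4.35 and 3.89 FPKM.

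Among sensors of nucleic acids 8 of 22 were higher and 0 lower, at a median of 0.73. They were 6 of 10 RNA sensors and 2 of 6 DNA sensors, and 0 of the 6 adaptors and kinases downstream. Over all genes 2.67% were higher and 1.58% lower, so 0 of 6 says little. RIGI, the cytoplasmic RNA helicase, went from 35.6 to 178 FPKM and its relative IFIH1 from 18.0 to 55.5 FPKM. DHX58 (4.87 and 14.0), EIF2AK2 (26.3 and 66.4), OASL (12.1 and 92.4) and TLR3 (0.618 and 3.38 FPKM) completed the RNA sensors called. The adaptor MAVS, at 18.1 and 19.0 FPKM, and the DNA sensor CGAS, at 16.6 and 19.9, lay close together in the 2 tables. STING1 was at 212 and 157 FPKM. ZBP1, a sensor of Z-form nucleic acid, was at 0.553 and 6.14 FPKM, and IFI16 at 26.3 and 56.2.

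Of the antiviral effectors 46 of 66 were higher and 0 lower, the ratios of 66 of 66 lay above 0, and the median was 1.34. IFI44 had the largest ratio of all ranked genes: it was at 0.00844 FPKM in scrambled vehicle, 0.0575 in hairpin vehicle, 0.491 in scrambled ATRA and 54.7 in hairpin ATRA (log2 ratio 5.22). For this gene and for IFI44L, ISG20 and XAF1 the scrambled ATRA table stayed at or below 1.52 FPKM, and the hairpin ATRA table alone was well above it. They passed the 1 FPKM filter only through that table, so being high there was a condition of their being compared. The 46 include these genes, and other low members of the 46 can have passed in the same way. By sub-family, all 4 IFIT genes were higher (median 2.74), as were 4 of 5 genes of the OAS group (median 2.38), 4 of 5 genes of ISG15 conjugation (median 2.70) and 6 of 9 IFI and IFITM genes (median 1.45). The GTPases had 3 of 7 higher (median 0.93) and the other effectors 25 of 36 (median 1.19).

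The OAS enzymes make a second messenger in response to double-stranded RNA. OAS1 went from 65.6 to 344 FPKM, OAS2 from 10.9 to 208 and OAS3 from 104 to 394. These 3 OAS genes lie side by side on chromosome 12 between 113344739 and 113449528 (hg19). IFIT proteins bind foreign RNA ends. IFIT1 stood at 18.5 and 171 FPKM, IFIT2 at 28.1 and 219, IFIT3 at 70.3 and 416, and IFIT5 at 14.7 and 58.9. With IFIT1B (0.711 and 6.75 FPKM) they form a run of 5 called genes on chromosome 10 between 91061706 and 91180759 (hg19).

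ISG15, a ubiquitin-like protein, went from 61.0 to 529 FPKM, and some of the enzymes that attach it were higher too. The E2 enzyme UBE2L6 was at 22.8 and 153 FPKM and the ligase HERC5 at 6.96 and 58.4. UBA7, the E1, was at 32.1 and 47.1 FPKM, under the mark. HERC5 lies beside HERC6 and PPM1K, also called higher, on chromosome 4. IFI6 reached the highest level of any effector in hairpin ATRA, 1154 FPKM against 175 in scrambled ATRA. IFITM1, which blocks viral entry, was at 88.7 and 461 FPKM, and IFITM2 at 181 and 317, under the mark. RSAD2 (viperin) stood at 5.20 and 58.2 FPKM, BST2 (tetherin) at 140.0 and 402, and MX2 at 31.9 and 68.2. MX1, a classical interferon marker, was low, at 0.906 FPKM in scrambled ATRA, and passed the mark with a log2 ratio of 1.07. IFI27 was listed at 0 in both.

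**Figure D3:**
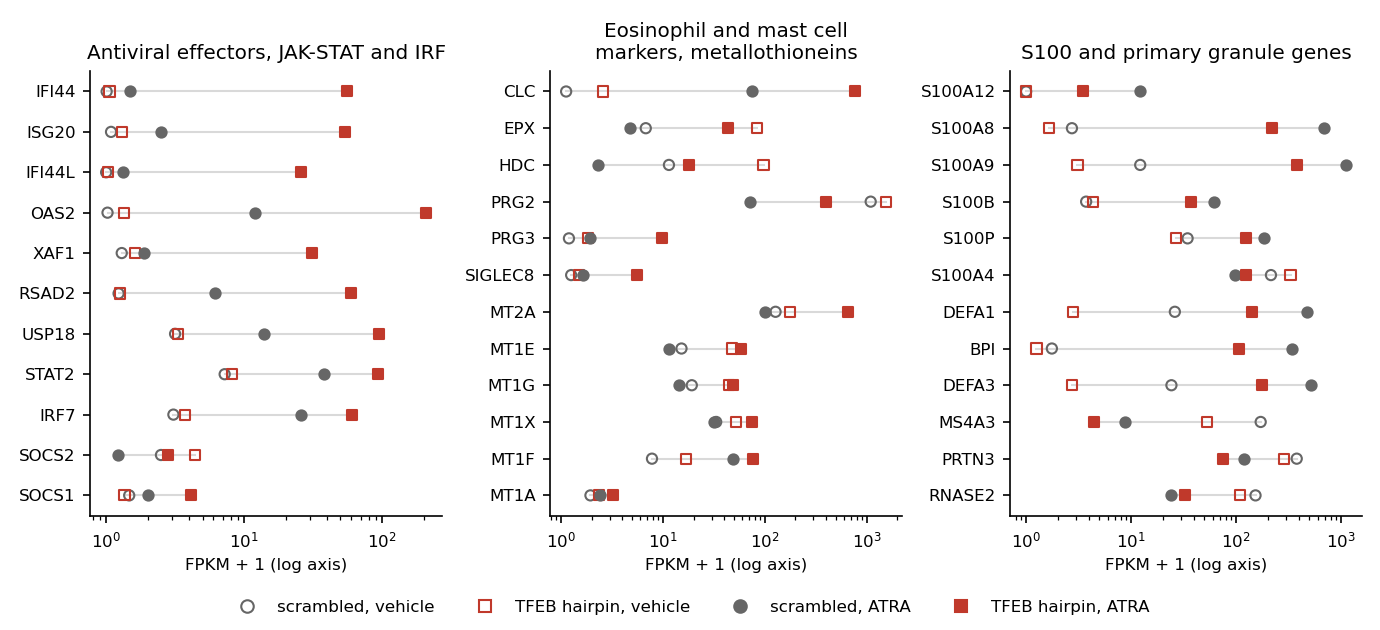
FPKM + 1 in the 4 tables on log axes for members of 6 lists: circles are scrambled and squares TFEB hairpin, open symbols vehicle and filled symbols ATRA. The filled squares of IFI44 (54.7 FPKM), ISG20, IFI44L, OAS2, XAF1 and RSAD2 lie right of their other 3 symbols, EPX and HDC have both squares right of their circles, and S100A8, S100A9, BPI and DEFA1 have the filled square left of the filled circle.

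Promoter stretches of the effectors with the largest ratios are shown because the interferon-stimulated response element is the sequence through which the complex of STAT2 and IRF9 acts. They are from RefSeq (GRCh38.p14), run 5′ to 3′ on the gene's strand and end at the base before the annotated start. Capitals mark each match to the core GAAANNGAAA on either strand. The IFI44 stretch is chr1:78649629-78649788, that of ISG20 chr15:88638856-88639015, that of IFI44L chr1:78620274-78620447 and that of RSAD2 chr2:6877617-6877776, all on the plus strand. For OAS2, also among the 6 largest ratios, no promoter was analysed here.
IFI44: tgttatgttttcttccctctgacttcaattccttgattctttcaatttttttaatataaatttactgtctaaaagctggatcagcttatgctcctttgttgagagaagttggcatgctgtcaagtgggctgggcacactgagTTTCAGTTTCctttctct
ISG20: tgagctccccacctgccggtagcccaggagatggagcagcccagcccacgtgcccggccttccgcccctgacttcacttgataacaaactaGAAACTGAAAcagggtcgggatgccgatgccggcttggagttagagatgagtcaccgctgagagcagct
IFI44L: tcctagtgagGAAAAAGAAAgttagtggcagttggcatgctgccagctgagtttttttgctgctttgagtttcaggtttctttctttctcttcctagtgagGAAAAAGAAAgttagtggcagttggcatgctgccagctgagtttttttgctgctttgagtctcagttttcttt
RSAD2: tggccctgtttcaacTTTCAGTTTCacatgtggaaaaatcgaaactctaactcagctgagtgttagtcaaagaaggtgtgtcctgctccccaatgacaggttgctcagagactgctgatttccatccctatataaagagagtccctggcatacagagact
In IFI44 the match begins 18 bases before the start, in ISG20 69, and in RSAD2 145. IFI44L holds 2 matches. RSAD2 has 2 annotated starts in the table, of which the one shown has a match and the other has none, and both starts of IFI44 have one. XAF1 has 2 annotated starts in the table and no match within 250 bases of either, which says only that these letters are not in those windows.

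The core occurred within 250 bases before the start in 3.02% of the 35116 promoters of the table. Over genes, counting any annotated start, 290 of 8710 compared genes with a promoter held it (3.33%), and 30 of 53 antiviral effectors did (56.6%), as did 8 of 17 MHC class I genes (47.1%). Of the nucleic acid sensors 16 of 22 had a promoter (72.7%), under the 80% of a list required for a share, and 2 of the 16 held the core. Of the 290 genes with the core 41 were higher (14.1%) and 2 lower. Of the 8420 genes without it 138 were higher (1.64%) and 86 lower. Within the antiviral effectors, the 30 genes with the core had a median log2 ratio of 1.89 and 26 were higher, and the 23 without had a median of 1.09 and 12 were higher. The 26 are also among the 41 above. IFI44, ISG20 and IFI44L with the core, and XAF1 without it, passed the 1 FPKM filter only through the hairpin ATRA table. The list was also chosen with earlier results known, so these counts are a description and were not tested. None of the 11 eosinophil, basophil and mast cell genes with a promoter held the core, but at 3.33% of compared genes few or none would be expected among 11. A match is a stretch of letters and was not tested as a binding site.

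Genes that load peptides on MHC class I had smaller ratios in 1 direction. All 21 genes of the list had ratios above 0, beside 58.9% of all genes, with 4 higher and a median of 0.51. TAP1 and TAP2, the peptide transporter, went from 41.3 to 101 and from 28.9 to 59.3 FPKM. The disulphide isomerase PDIA3 (125 and 282 FPKM) and the immunoproteasome subunit PSMB9 (69.0 and 139.6) were also called. B2M, the light chain, was at 3514 and 5815 FPKM, HLA-B at 937 and 1101, and HLA-C at 427 and 569, none past the mark. HLA transcripts come from near-identical genes, so reads may be split among them. Of the MHC class II list CD74, the invariant chain, was lower at 60.9 and 25.6 FPKM. All 7 APOBEC3 cytidine deaminases had ratios above 0 and 2 were higher, APOBEC3F (2.83 and 7.53 FPKM) and APOBEC3G (6.92 and 14.9).

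Other higher genes of large ratio stood outside these lists. SIGLEC1, a sialic acid-binding receptor known as an interferon-responsive marker of myeloid cells, was at 0.803 FPKM in scrambled ATRA and 21.8 in hairpin ATRA. The death ligand TNFSF10 (TRAIL), a known target of both ATRA and interferon, went from 9.27 to 47.9 FPKM and TNFSF13B (BAFF) from 14.9 to 44.8. FGL2 stood at 0.567 and 10.6 FPKM and CCL8 at 0.0703 and 4.80. SIGLEC1 and FGL2 were low in the other 3 tables and passed the 1 FPKM filter only through hairpin ATRA. Being high there was thus a condition of their being compared. LAMP3, a lysosomal membrane glycoprotein that interferon is known to induce, was at 1.87 and 16.3 FPKM. In all, 106 of the 209 higher genes lie in none of the 48 lists. Of 84 of these with a promoter, 8 held the response element core, and the 5 with the largest ratios, chosen after their values were seen, were CD274 (PD-L1, 1.55 and 9.65 FPKM), SHFL (20.2 and 59.7), LAP3 (107 and 282), GLUL (27.6 and 62.6) and NCOA7 (9.55 and 21.8).

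Genes of eosinophils, basophils and mast cells formed a further group. Of 13 compared 9 were higher and 0 lower, beside 2.67% and 1.58% of all genes, with a median log2 ratio of 1.58. Not all of the 9 are particular to this list. ITGA2B is also counted in the megakaryocytic and adhesion lists, and GATA1 and GATA2 in that of myeloid transcription factors. The size rests on the pseudocount: the median was 2.20 with 0.1 FPKM and 0.76 with 5 FPKM, where 5 genes were higher. With vehicle 5 of the 13 were higher, beside 1.06% of all genes. CLC, the Charcot-Leyden crystal protein, was at 0.120 FPKM in scrambled vehicle, 1.58 in hairpin vehicle, 74.2 in scrambled ATRA and 771 in hairpin ATRA. PRG2, the eosinophil major basic protein, was at 1094, 1548, 69.8 and 402 FPKM in the same order. The scrambled ATRA table thus held far less PRG2 than either vehicle table, and the hairpin ATRA table lay between. EPX, eosinophil peroxidase, followed another order, 5.78, 82.8, 3.79 and 42.8 FPKM, with both hairpin tables above both scrambled tables. HDC, which makes histamine, was likewise at 10.4 and 96.1 FPKM with vehicle and 1.29 and 17.0 with ATRA.

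At lower levels PRG3 was at 0.922 and 8.76 FPKM and SIGLEC8, an eosinophil and mast cell receptor, at 0.632 and 4.52. GATA1, the factor that directs this lineage, was at 1.04, 3.99, 1.86 and 7.57 FPKM in the 4 tables, and GATA2 at 10.1, 21.9, 0.918 and 3.48. Members of the list that did not pass the mark were RNASE2 (23.0 and 32.1 FPKM), RNASE3 (4.41 and 4.07), CCR3 (3.79 and 6.05) and IL3RA (3.29 and 4.29). The mast cell proteases TPSAB1, TPSB2 and CMA1 were at 0.0499, 0.0220 and 0.0486 FPKM in hairpin ATRA, CPA3 was at 0, and IL5RA was at 0.0135 and 0.171 FPKM. The summed level of the list's 25 members was 1295, 1878, 189.1 and 1307 FPKM in scrambled vehicle, hairpin vehicle, scrambled ATRA and hairpin ATRA. LTC4S, the leukotriene C4 synthase of these cells, was higher too (0.715 and 3.05 FPKM).

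Metallothioneins are small proteins that bind zinc and copper. Of 8 compared 4 were higher and 0 lower, beside 2.67% and 1.58% of all genes. MT2A went from 99.8 to 655 FPKM, and stood at 126 and 176 with vehicle. MT1E was at 10.5 and 57.2 FPKM, MT1G at 13.5 and 47.3, and MT1X at 31.0 and 73.7. They lie with MT1JP in a run of 5 called genes on chromosome 16 between 56642478 and 56718108 (hg19), and their sequences are similar enough that reads may be shared among them. MTF1, the metal-sensing factor that drives them, was at 16.7 and 15.2 FPKM and the zinc exporter SLC30A1 at 12.8 and 15.0. PON2, ITM2A and KCNH2 were also among the 20 largest ratios. KCNH2 was at 33.8 and 95.6 FPKM with vehicle and 2.27 and 21.7 with ATRA, higher with the hairpin under both treatments.

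Heat shock chaperones were in part higher with the hairpin. Of 14 heat shock genes 6 were higher and 0 lower (median 0.84), beside 2.67% and 1.58% of all genes. HSPE1, the mitochondrial cochaperonin, was at 429.6 FPKM in scrambled vehicle, 522 in hairpin vehicle, 107 in scrambled ATRA and 247 in hairpin ATRA. Its partner HSPD1 went from 196 to 410.1 FPKM between the ATRA tables, HSP90AA1 from 219 to 455 and the endoplasmic reticulum chaperone HSPA5 from 126 to 259.6. HSPA1A and HSPA1B are near-identical copies, and their values (24.5 and 34.1 FPKM in hairpin ATRA) may be split reads. HSF1, the heat shock factor, was at 11.1 and 11.8 FPKM.

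MYC was at 279 FPKM in scrambled vehicle, 270.5 in hairpin vehicle, 25.6 in scrambled ATRA and 54.6 in hairpin ATRA, so that both ATRA tables lay far below both vehicle tables and the hairpin ATRA table was the higher of the ATRA pair. Among 34 genes of the MYC network and ribosome biogenesis, MYC and GNL3 passed the mark and 29 had ratios above 0 (median 0.56). The nucleolar genes GNL3 (20.9 and 43.0 FPKM), BYSL (7.47 and 15.1) and WDR12 (7.08 and 14.3) had ratios near the mark. FARSB, a tRNA synthetase chain, was higher at 7.67 and 16.5 FPKM, alone among 20 synthetases. Cell cycle genes had 0 of 54 past the mark in either direction, beside 2.67% higher and 1.58% lower of all genes. Their median was 0.19, with MCM6 at 30.5 and 46.6 FPKM and CDKN1A at 6.54 and 3.92.

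**Figure D4:**
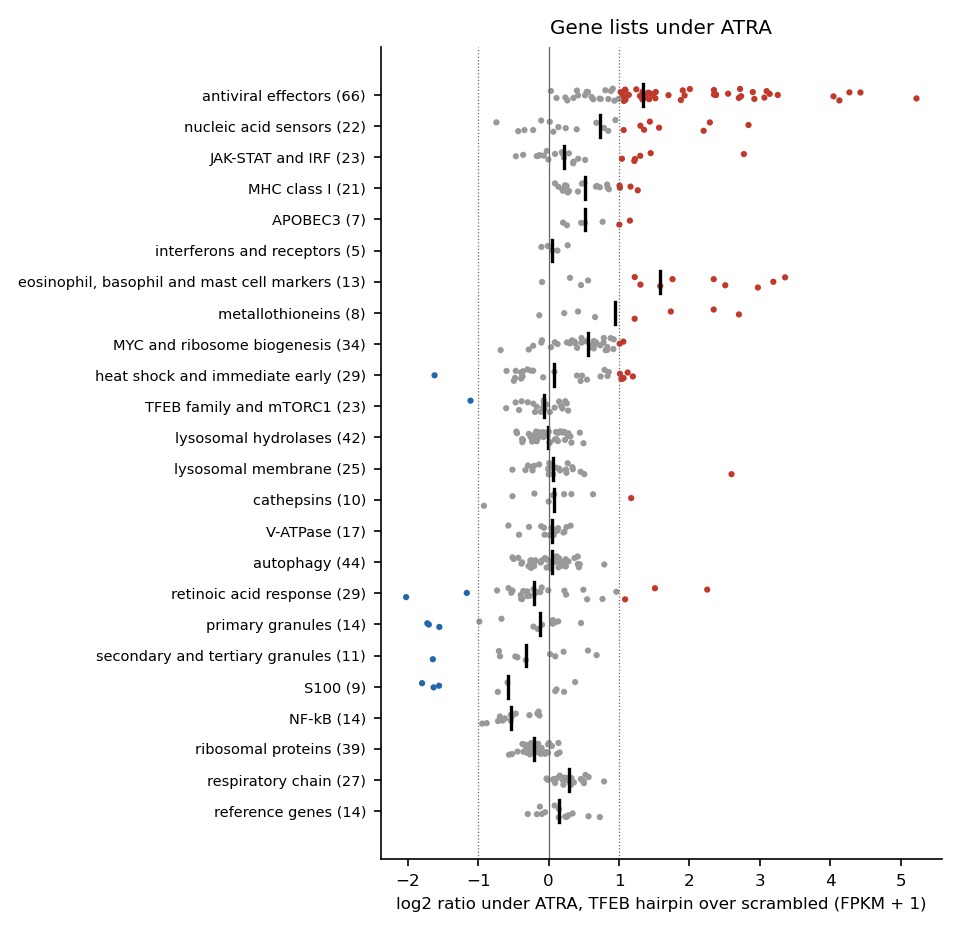
Log2 ratio of each gene compared in 24 lists, TFEB hairpin over scrambled under ATRA, with 1 point per gene and a black bar at the list's median; dotted lines mark 2-fold, and the number of genes is in parentheses. Antiviral effectors (median 1.34) and eosinophil, basophil and mast cell genes (median 1.58) lie mostly right of the mark, lysosomal hydrolases and autophagy genes lie between the marks, and all NF-kB genes lie left of 0.

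Granulocyte and inflammatory genes were among those lower with the hairpin, although 66 of the 92 lower genes lie in none of the 48 lists. Of 9 S100 genes 3 were lower and 0 higher, beside 1.58% and 2.67% of all genes. S100A8 and S100A9, which form calprotectin, were at 1.73 and 11.2 FPKM in scrambled vehicle, 0.652 and 2.08 in hairpin vehicle, 685 and 1119.6 in scrambled ATRA, and 219.9 and 379.8 in hairpin ATRA. The hairpin ATRA table held 32.1% and 33.9% of the scrambled ATRA level. S100A12 was listed at 0 in both vehicle tables and was at 11.1 and 2.48 FPKM with ATRA, and the 3 genes adjoin one another on chromosome 1 between 153330330 and 153363664 (hg19). S100A4 (96.1 and 125 FPKM) and S100A11 (305 and 326) were not lower.

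In the primary granule list 3 of 14 genes were lower and 0 higher, beside 1.58% and 2.67% of all genes. With vehicle 3 were lower as well, beside 0.787% of all genes. The median log2 ratio of the list was -0.12 with ATRA and -0.50 with vehicle. BPI, a protein that kills Gram-negative bacteria, went from 345 to 105 FPKM. The defensins DEFA1 (471 and 142 FPKM) and DEFA3 (519 and 176) are near-identical copies, and their values may be divided reads. They were lower with vehicle as well, DEFA1 at 25.2 and 1.81 FPKM. The log2 ratios of DEFA1 and DEFA3 were -3.22 and -3.14 with vehicle, and -1.72 and -1.55 with ATRA. DEFA4 was at 92.6 and 99.1 FPKM and lysozyme (LYZ) at 25.2 and 27.8. Of the later granules CHI3L1 was lower (171 and 54.0 FPKM), 1 of 11 genes compared, and LTF, LCN2 and CAMP were at 0.392, 0 and 2.35 FPKM in hairpin ATRA. The oxidase subunits CYBB (966 and 591 FPKM) and NCF1 (1336 and 802) did not pass the mark, and the list of 8 had 0 in either direction.

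The acute phase proteins ORM1 and ORM2 were both among the 3 largest ratios of the lower genes ranked. ORM1 was at 0.293 and 0.0862 FPKM with vehicle and 23.5 and 2.51 with ATRA, and the adjoining copy ORM2 at 10.9 and 1.23 with ATRA. BMP2, a growth factor of the TGF-beta family, was at 20.8 and 3.06 FPKM. Receptors that were lower included FPR2, a formyl peptide receptor (13.2 and 2.90 FPKM), and FCAR, the receptor for IgA (18.5 and 5.75). CLEC10A was at 6.35 and 1.90 FPKM. The myeloid receptor list as a whole had 5 of 59 genes higher and 4 lower, beside 2.67% and 1.58% of all genes. Its higher members included FCGR2B, the inhibitory Fc receptor, at 3.19 and 16.5 FPKM.

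Adhesion genes moved in both directions. ITGA6 (42.8 and 11.2 FPKM) and CD44 (125 and 49.8) were lower. P-selectin (SELP, 4.95 and 11.5 FPKM), SIGLEC1 and ITGA2B were higher. ITGAM (CD11b), a usual marker of granulocytic maturation, was at 83.1 and 54.6 FPKM, under the mark, and ITGB2 at 463 and 354. MARCKS was at 5.54 and 0.428 FPKM.

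NF-kB genes shared a direction without passing the mark. Of 14 genes 0 were higher and 0 lower, but 0 of 14 had a ratio above 0, beside 58.9% of all genes, and the median was -0.54. BCL3 was at 17.9 and 8.84 FPKM, the inhibitor NFKBIA at 153 and 82.4, NFKB2 at 51.9 and 31.1, and TNFAIP3 at 52.2 and 31.9. The chemokine list had 1 of 14 genes higher, CCL8, and 1 lower, the neutrophil chemokine CXCL8 (307 and 118 FPKM), with 7 ratios above 0 and a median of -0.08. CCL20 (56.4 and 31.1 FPKM), CCL4 (107 and 60.4), CXCL11 (2.26 and 4.58) and CCL5 (106 and 144) did not pass the mark. The list of cytokines and the TNF family had 2 of 31 higher, TNFSF10 and TNFSF13B, and 4 lower, with 17 ratios above 0 and a median of 0.06. Over all genes 2.67% were higher and 1.58% lower, so single calls in the chemokine and cytokine lists say little of a list. The 4 lower genes of the cytokine list were BMP2, the decoy receptor TNFRSF10C (7.37 and 2.76 FPKM), EBI3 (52.6 and 22.0) and TNF (33.6 and 16.2). IER3, an early response gene, was lower at 39.6 and 12.2 FPKM, and FOS (21.1 and 15.9) and EGR1 (46.8 and 35.9) did not pass it.

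Genes of the retinoic acid response itself gave 3 higher and 2 lower of 29, beside 2.67% and 1.58% of all genes, with a median of -0.21. STRA6, the vitamin A transporter, went from 27.9 to 6.10 FPKM and the retinoic acid hydroxylase CYP26B1 from 25.5 to 10.8. The related hydroxylase CYP26A1 was higher, at 0.871 and 4.33 FPKM. TGM2, transglutaminase, which ATRA is known to induce in these cells, was at 4.08 and 2.23 FPKM with vehicle and 2091 and 1258 with ATRA. CEBPE (224 and 193 FPKM), ICAM1 (522 and 406), CD38 (108 and 94.0) and ASB2 (147 and 122) were under the mark.

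Few genes of the lysosomal programme that TFEB is known for were called, as was so over all genes. Of 42 lysosomal hydrolases 0 were higher and 0 lower, beside 2.67% and 1.58% of all genes. At those shares a list of such size would hold few calls or none, so its count says little. The hydrolases had a median of -0.02 and a summed level of 2198 FPKM in scrambled ATRA and 2106 in hairpin ATRA. The largest ratio in size among them was that of HYAL2, at 2.54 and 3.99 FPKM. GAA, acid alpha-glucosidase, was at 10.5 and 7.42 FPKM, TPP1 at 155 and 119, and GM2A at 25.8 and 35.4. Of 10 cathepsins CTSL was higher (6.70 and 16.3 FPKM), while CTSD, the most abundant, was at 1830.4 and 1282 and CTSH at 81.2 and 42.5. Of 25 lysosomal membrane genes LAMP3 alone passed the mark. The 17 V-ATPase subunits, which acidify the lysosome, and 44 autophagy genes had 0 calls each, again near the shares of all genes. SQSTM1, the autophagy receptor p62, was at 164 and 115 FPKM, OPTN at 2.43 and 4.93, and ATP6V0C at 121 and 90.1. The medians of the membrane, V-ATPase and autophagy lists were 0.06, 0.04 and 0.05, and each fell below 0 when the tables were rescaled by median of ratios or upper quartile. In the list of mTORC1 sensing genes TFEB was the single gene called. FLCN was at 12.2 and 8.55 FPKM and RRAGD, itself known as a TFEB target, at 12.4 and 8.98.

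The stretches before the starts of GAA and GALNS, the hydrolases with the largest ratios in size among those that hold it, show the E-box form that TFEB binds, TCACGTGA in capitals. GAA has 2 matches in chr17:80101421-80101580, plus strand, and GALNS 1 in chr16:88856948-88857132, minus strand, of GRCh38.p14. GALNS, which degrades keratan sulphate, was at 13.3 and 16.3 FPKM, so the ratio of GAA lay below 0 and that of GALNS above it.
GAA: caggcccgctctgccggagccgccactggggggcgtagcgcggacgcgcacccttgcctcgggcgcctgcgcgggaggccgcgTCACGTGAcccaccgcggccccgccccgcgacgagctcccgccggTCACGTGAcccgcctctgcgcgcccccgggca
GALNS: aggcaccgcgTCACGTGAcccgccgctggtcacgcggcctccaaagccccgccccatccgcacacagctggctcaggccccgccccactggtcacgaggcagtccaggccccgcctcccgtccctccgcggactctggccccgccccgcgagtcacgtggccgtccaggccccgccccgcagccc
This form occurred in 0.854% of the 35116 promoters, in 184 of 8710 compared genes (2.11%), in 3 of 22 lysosomal membrane genes with a promoter (13.6%), in 1 of 38 autophagy genes (2.63%) and in 0 of 53 antiviral effectors. Of the 42 hydrolases 31 had a promoter (73.8%), under the 80% required for a share, and 6 of the 31 held it. The same holds for the V-ATPase subunits, of which 12 of 17 had a promoter (70.6%) and 2 held it. None of the 69 lower genes with a promoter, small RNAs and genes listed at 0 left out, held this form, and neither did any of the 159 higher ones. At 2.11% of compared genes few matches would be expected in groups of these sizes, so the absence marks neither group.

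Other housekeeping programmes stayed mostly between the marks, as did most genes: 2.67% of all genes were higher and 1.58% lower. The 39 ribosomal protein genes had 0 calls and a median of -0.21, with RPL3 at 1308 and 885 FPKM. The 27 respiratory chain genes had 0 calls and a median of 0.29, and 32 genes of glucose metabolism had 0 calls and a median of -0.01. Of 28 cholesterol synthesis genes the 1 called, TM7SF2, was listed at 0 in both scrambled tables, and HMGCS1 was at 40.5 and 66.1 FPKM. HMOX1, heme oxygenase, was the single call in the list on oxidative stress and iron, at 3.02 and 9.21 FPKM. The 14 reference genes had 0 calls and a median of 0.15.

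A value of 0 in one ATRA table was listed for 140 genes, 66 in scrambled and 74 in hairpin ATRA, and 84 of them were small RNAs. Of the 56 others, 44 (78.6%) overlap a model of another symbol, against 2535 of 10772 genes compared (23.5%). EEF1A1, a translation factor used by every cell, was listed at 0 in both vehicle tables and in scrambled ATRA and at 3139 FPKM in hairpin ATRA. The scrambled ATRA status for EEF1A1 says that the estimate was skipped for too many fragments. SERF2 was at 0, 65.1, 69.5 and 0 FPKM in scrambled vehicle, hairpin vehicle, scrambled ATRA and hairpin ATRA. PPAN was at 0 FPKM in scrambled ATRA and 27.4 in hairpin ATRA, with 58.7 and 74.1 in the vehicle tables. NUDT3, GPN1 and PSMC3IP were also at 0 in scrambled ATRA, with 39.1, 20.9 and 14.2 FPKM in hairpin ATRA, and NAB2, EEF1E1, SNAPIN and IFT20 at 0 in hairpin ATRA, with 18.0, 17.4, 17.0 and 11.9 FPKM in scrambled ATRA. No fold is given for these genes, and 76 more were at 0 in both ATRA tables.

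The vehicle pair of tables shares no table with the ATRA pair and compares the same hairpin labels in other samples. TFEB itself was not lower with its hairpin there (1.20 FPKM in scrambled and 1.35 in hairpin vehicle). For genes shared by both pairs, an effect of the hairpin and a standing difference between the cells carrying each hairpin cannot be told apart. Neither was tested. With vehicle 117 of the same genes (1.06%) were higher and 87 (0.787%) lower. Among genes above 0 in all 4 tables and not small RNAs, 203 were higher with ATRA and 48 with vehicle, and 20 were in both lists, 9.85% of the first and 41.7% of the second. For lower genes the lists held 87 and 31 with 10 in common, 11.5% of the first and 32.3% of the second. EPX, HDC, CLC, GATA1, GATA2, PON2, ITM2A, KCNH2, MT1E and MT1G were among the 20 shared higher genes. S100A9, DEFA1 and DEFA3 were among the shared lower genes. IFI44, ISG20 and RSAD2 had vehicle ratios of 0.07, 0.27 and 0.03. In scrambled and hairpin vehicle they were at 0.00844 and 0.0575, 0.0854 and 0.306, and 0.231 and 0.258 FPKM. At such levels the pseudocount of 1 FPKM holds the ratio near 0 whatever the fold, so these genes could hardly be called with vehicle. Whether the hairpin difference is larger with ATRA than with vehicle was not tested, since each pair gives 1 value.

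**Figure D5:**
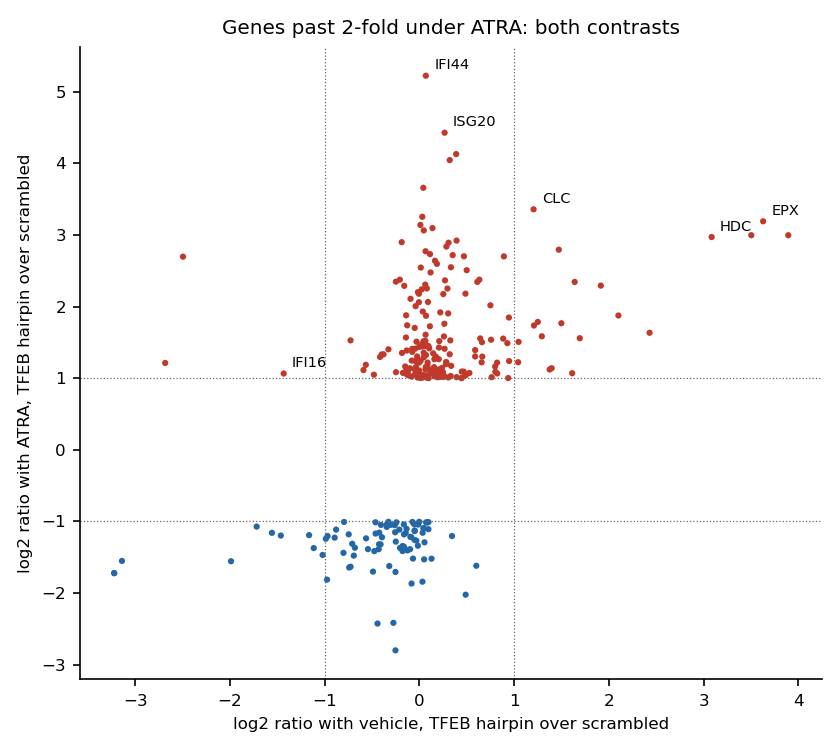
Log2 ratio of TFEB hairpin over scrambled with vehicle (horizontal) and with ATRA (vertical), for genes past 2-fold under ATRA that are above 0 in all 4 tables and are not small RNAs; dotted lines mark 2-fold. Most red points, IFI44 and ISG20 among them, stand near 0 on the horizontal axis, while EPX, HDC and CLC lie right of the mark and IFI16 left of it. IFI44 and ISG20 are under 1 FPKM in both vehicle tables, where the pseudocount holds ratios near 0.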

How the data were processed

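The authors deposited FPKM values: TopHat, Cufflinks, Cuffdiff and the hg19 genome are named in the submitters' processing notes, and versions are not given in the sources used here. Each of the 4 deposited tables holds 65986 models. RefSeq models were given symbols from a RefSeq table of GRCh38.p14, used for names alone (39841 of 41159 accessions, 96.8%), and FPKM were summed per symbol. Coordinates of genes are those of the files (hg19, counted from 1). Genes with a mean of at least 1 FPKM were compared as log2 ratios with a pseudocount of 1 FPKM, with no test, using Python 3.11.15, pandas 2.3.3, NumPy 2.4.6 and Matplotlib 3.10.9, and the calculation was tested on simulated data. Absolute depth is unknown.

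Members, lists and named genes were chosen with earlier results of these data known. By rule the text names the MiT/TFE factors, the 20 largest ratios each way among genes of at least 5 FPKM in an ATRA table and above 0 in both, up to 6 members per list with the largest ratio, and the 10 highest genes listed at 0 in one ATRA table. Symbols at several loci, small RNAs, read-through, LOC, LINC and antisense symbols were left out of the ranking. A few genes that the rule names are not reported here, and the counts over lists include them. Other list members (such as JAK1, MAVS, OAS1, IFI6, MX1, ITGAM and TGM2) were added for their role after their values were seen. The alternatives are pseudocounts, filters, rescalings, other summaries of the models and other fold marks. Promoters came from RefSeq (GRCh38.p14), in which 8721 of the 11052 genes had at least 1. Replicate samples have no columns of their own in the tables, and p-values are not given.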

Additional observations from a re-analysis of the deposited data

Results flagged for a closer look

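IFI16, an interferon-inducible sensor of DNA, was called in opposite directions with and without ATRA. Its level was 7.01 FPKM in scrambled vehicle, 1.97 in hairpin vehicle, 26.3 in scrambled ATRA and 56.2 in hairpin ATRA. The log2 ratio of hairpin over scrambled was 1.06 with ATRA and -1.43 with vehicle. RMRP and RPPH1, the RNA components of RNase MRP and RNase P, also differed in direction. Both are noncoding RNAs that the symbols counted here as small RNAs do not include. The counts given without small RNAs therefore hold them. RMRP had ratios of 2.70 with ATRA and -2.49 with vehicle, at 26.8, 3.93, 1.01 and 12.1 FPKM in scrambled vehicle, hairpin vehicle, scrambled ATRA and hairpin ATRA. RPPH1 had ratios of 1.21 and -2.68, at 8.47, 0.476, 0.800 and 3.17 FPKM in the same order. With 1 value per group the difference between treatments was not tested for any of the 3 genes. RMRP and RPPH1 were named after their values were seen.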

How the results depend on the processing

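No paired analysis was possible because the tables give 1 value per group; the planned replicate block and the fits without a replicate were not run for the same reason. A pseudocount of 5 FPKM gave 170 genes higher, 101 lower and 5 eosinophil, basophil and mast cell genes higher. A mean of at least 5 FPKM gave 110 genes lower, 71 listed at 0 in one ATRA table and again 5 eosinophil, basophil and mast cell genes. Without small RNAs 56 genes were listed at 0 in one ATRA table, and with no filter 1358. Genes lower numbered 104 without those listed at 0, and 92 without these and small RNAs, an alternative added after the data were seen. A 1.5-fold mark gave 802 higher and 444 lower, and a 4-fold mark 108 higher, 73 lower, 21 antiviral effectors and 5 eosinophil, basophil and mast cell genes. In the other alternatives these counts stayed within 1.5 times those reported, and TFEB kept its direction in each. Of 41 genes followed over the settings 0 changed direction, and 35 of their 205 alternative values moved by 1.5-fold or more. Most of the 41 were chosen for large ratios, which a pseudocount or these rescalings could hardly reverse. Their kept direction is therefore no check. Of 192 alternative list medians 2 moved by 1.5-fold or more, both of the eosinophil, basophil and mast cell list, to 2.20 with a pseudocount of 0.1 FPKM and 0.76 with 5 FPKM. Among 48 lists 6 medians changed sign, all under rescaling: lysosomal membrane, V-ATPase, autophagy, interferons and receptors, cytokines with the TNF family, and chromatin. Counting depth is known only as a ratio between tables, so no counting interval can be given for low genes.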

Other observations

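Several called genes outside the lists, named after their values were seen, had high levels or lay together on a chromosome. LY6E, a membrane protein known to respond to interferon, was at 26.4 FPKM in scrambled vehicle, 37.4 in hairpin vehicle, 95.6 in scrambled ATRA and 437 in hairpin ATRA. The nucleotidase NT5C3A was at 39.8 and 175 FPKM in the 2 ATRA tables and the RNA-processing enzyme PNPT1 at 15.6 and 54.3. EPAS1, a hypoxia-inducible factor subunit, stood at 8.04 and 32.1 FPKM, and CYP4F3, which inactivates leukotriene B4, at 3.58 and 21.6. Resistin (RETN) was lower, at 76.1 and 43.3 FPKM with vehicle and 1071 and 394 with ATRA. SERPINA1, alpha-1 antitrypsin, was lower at 20.5 and 8.65 FPKM, as was the membrane protease MMP14 at 66.0 and 25.2.

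A pair of further runs of neighbouring genes called higher lay on chromosome 1 (HSPA6, HSPA7 and FCGR2B, from 161494036 to 161648444 in hg19) and chromosome 22 (SCO2, CIMAP1B and KLHDC7B, from 50961997 to 50989452). HSPA7 was at 1.76 and 7.41 FPKM and is a close copy of HSPA6 (0.972 and 3.07), so reads may be shared. KLHDC7B was at 2.49 and 12.2 FPKM, CIMAP1B at 1.26 and 5.03, and SCO2 at 11.6 and 24.5. In a run of lower genes on chromosome 9, COL27A1 (2.07 and 0.341 FPKM) adjoined ORM1 and ORM2.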
